A study of Mus musculus with 8 samples.

Results

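The annexins described here are 9 genes, Anxa1, Anxa2, Anxa3, Anxa4, Anxa5, Anxa6, Anxa7, Anxa8 and Anxa11, taken by symbol from a table of 24630 genes. All 9 were found. The table holds messenger RNA of quiescent muscle stem cells, which repair skeletal muscle, sorted from the limb muscles of male C57BL/6 mice. The old group comprised 4 mice aged 22 months and the young group 4 mice aged 4 months, with a library from each animal. No allele, transgene or treatment is named for either group. In both groups the sort kept VCAM-positive cells that lacked CD45, CD31 and Sca1, and RNA was taken with no culture step.

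Annexins are cytosolic proteins that bind acidic phospholipids, such as phosphatidylserine, when calcium rises. When a muscle cell's plasma membrane tears, calcium enters and several annexins gather at the wound, where they help to fold, cross-link and reseal the membrane. Some also act outside the cell: annexin A1 is a ligand of formyl peptide receptors that restrains inflammation and is induced by glucocorticoids, and annexin A2 with S100a10 forms a surface receptor for plasminogen and its activator.

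Reads in genes ranged from 20.1 to 24.9 M (M, the SI prefix mega) in the old libraries and from 1.91 to 6.56 M in the young. The labels state 1 range of sequencing depth for all libraries, and no source used here says what became of the other reads of the young libraries. Library totals below are therefore shares of the reads in genes, not of all reads sequenced. For a gene 1 kb long, 3 reads are worth 0.121 to 0.149 RPKM in the old libraries and 0.458 to 1.57 RPKM in the young, where RPKM means reads per M library reads and per kilobase of gene length. These floors cover counting error only. Depth and age cannot be told apart by comparing libraries of like depth, since the groups do not overlap in depth. Levels below are RPKM rescaled to the library's reads in genes, called library totals. A fold change is a difference of log2(RPKM + 1), old minus young, with its SE. Over the 5703 tested genes the median of these differences was -0.01 on library totals and 0.64 on the scale as deposited, whose values are therefore read against that shift. Adjusted p-values are from limma, by the Benjamini-Hochberg method over those 5703 genes, which averaged 5 RPKM or more, with a threshold of 0.05. The 8 markers of muscle stem cells summed to 8714 to 12494 CPM (counts per M reads in genes) in old and 9198 to 12363 CPM in young libraries (exact two-sided permutation p = 0.8286). The sum joins markers that differ in opposite directions, since 4 of the 8 were called lower in old libraries and 1 higher. Over all tested genes 12.5% were called lower and 12.3% higher. Calcr, the calcitonin receptor, averaged 17.8 ± 3.53 RPKM in old and 52.8 ± 7.76 RPKM in young libraries, and Vcam1, used in the sort, 473 ± 112 RPKM in old and 274 ± 76.0 RPKM in young libraries (SD, n = 4 each). Pax7, the transcription factor that defines these cells, averaged 10.7 ± 2.47 RPKM in old and 17.6 ± 3.50 RPKM in young libraries (SD, n = 4 each).

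The promoters of Anxa1 and Anxa7, which rose in old cells, and of Anxa2, which did not pass the test, are shown because their sets of matched motifs differ. Sequences are 300 bases from RefSeq on GRCm38.p6, from 250 bases before the start of the RefSeq entry to 50 after it, 5′ to 3′ on the gene's strand. These starts lie inside the longer GENCODE spans given below for the 3 genes, so the windows overlap the spans. Capitals mark a match to a TATA box (TATAAA), a GC box (GGGCGG), an AP-1 site (TGANTCA) or an antioxidant response element (TGACNNNGC), searched on both strands. Anxa1 lies at chr19:20390622-20390921 on the minus strand, Anxa2 at chr9:69453433-69453732 on the plus strand and Anxa7 at chr14:20479892-20480191 on the minus strand.
Anxa1: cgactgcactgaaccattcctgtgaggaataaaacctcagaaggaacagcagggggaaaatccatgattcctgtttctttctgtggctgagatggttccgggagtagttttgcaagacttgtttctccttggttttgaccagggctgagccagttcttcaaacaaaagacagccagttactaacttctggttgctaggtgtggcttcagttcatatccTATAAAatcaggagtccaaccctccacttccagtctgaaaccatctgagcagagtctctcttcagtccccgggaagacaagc
Anxa2: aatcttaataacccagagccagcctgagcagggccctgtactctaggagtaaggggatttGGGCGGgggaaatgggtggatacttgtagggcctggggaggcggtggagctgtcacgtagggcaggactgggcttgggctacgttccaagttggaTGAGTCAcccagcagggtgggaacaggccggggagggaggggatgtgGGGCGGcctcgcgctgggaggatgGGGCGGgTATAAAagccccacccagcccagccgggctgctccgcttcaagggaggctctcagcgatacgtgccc
Anxa7: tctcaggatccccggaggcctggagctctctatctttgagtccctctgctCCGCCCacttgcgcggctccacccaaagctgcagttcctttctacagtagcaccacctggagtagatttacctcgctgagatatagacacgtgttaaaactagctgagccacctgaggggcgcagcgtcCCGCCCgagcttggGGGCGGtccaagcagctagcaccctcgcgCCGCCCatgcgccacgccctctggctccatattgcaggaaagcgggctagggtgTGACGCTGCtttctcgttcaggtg
The Anxa1 window held a TATA box beginning 32 bases before the start and no GC box. The Anxa2 window held a TATA box 17 bases before the start, 3 GC boxes and 1 AP-1 site. The Anxa7 window held 4 GC boxes, 1 antioxidant response element and no TATA box. A second RefSeq window of Anxa7, chr14:20480084-20480383, whose start is the 5′ end of the GENCODE span, held 1 GC box and none of the other 3 motifs. Of 32851 promoter windows in the RefSeq table, 13.6% held TATAAA, 35.7% GGGCGG, 7.81% TGANTCA and 12.4% TGACNNNGC. Anxa4 and Anxa11, which did not pass the test, share motifs with Anxa7. A window of Anxa4, chr6:86793535-86793834, held 1 GC box and 1 antioxidant response element, and that of Anxa11 3 GC boxes. A match describes letters only. Of the 9 annexins 7 matched an entry.

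Of the 9 annexins 8 passed the filter on low values, and Anxa8 did not. Among the 8, Anxa1, Anxa3 and Anxa7 rose in old cells, Anxa6 fell, and Anxa2, Anxa4, Anxa5 and Anxa11 did not pass the test. Over all tested genes 24.8% were called, 12.3% higher and 12.5% lower, and the median log2 fold change of the 8 annexins was 0.27. On the scale as deposited 6 annexins were called higher and 0 lower, against 68.1% and 1.12% of all genes (69.2% in either direction), and their median was 0.96. Old and young values did not overlap in 5 of the 8 annexins, 4 with old above young (13.8% of all genes) and 1 with old below young (13.3%), where 27.1% of all genes did not overlap in either direction. As deposited 6 annexins, Anxa1, Anxa2, Anxa3, Anxa5, Anxa7 and Anxa11, had old above young without overlap, beside 61.2% of all genes, and 0 had old below young, beside 0.473% (61.7% in either direction). In these bulk libraries, fewer cells of a type and less RNA per cell cannot be told apart.

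**Figure D1:**
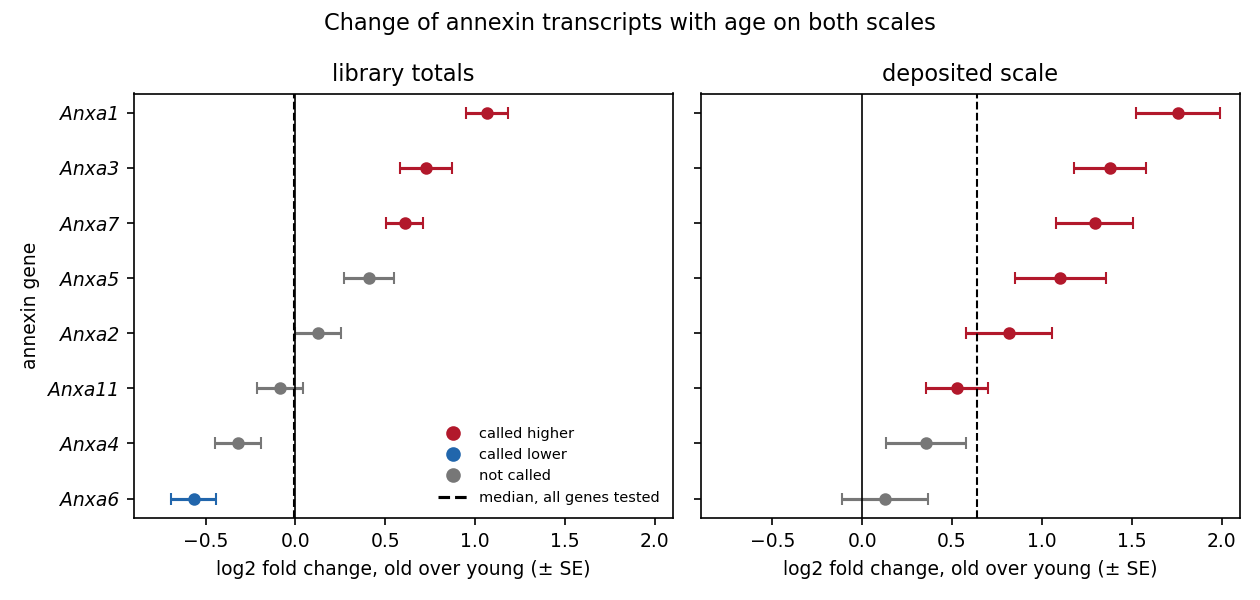
Log2 fold changes, old over young, of the tested annexins with SE, on library totals and on the scale as deposited. On library totals Anxa1 stands highest at 1.07 and Anxa6 lowest at -0.57.

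The annexins span a wide range of levels, and the order of the most abundant differed between the ages. Anxa5 led in all 8 libraries and stood 64th among 24572 gene symbols by mean RPKM in old and 87th in young cells. Anxa1 took place 2 in all 4 old libraries and place 4 in all 4 young ones. Anxa6 took place 3 or 4 in the old libraries and place 2 in all young ones. From place 5 down the order was the same in all 8 libraries, with Anxa7, Anxa4, Anxa3, Anxa11 and Anxa8. Summed over the 9 genes, annexin RPKM was 1185, 1472, 1373 and 1338 in old libraries and 1107, 977, 1133 and 1189 in young libraries.

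**Figure D2:**
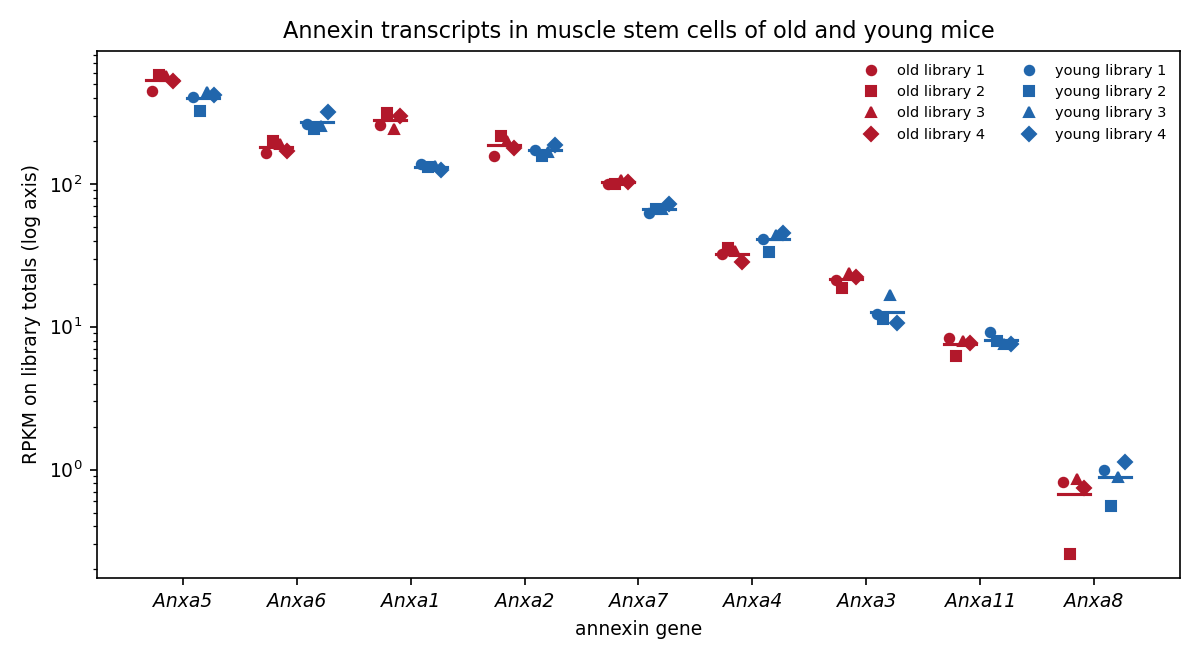
RPKM on library totals of each annexin in each library on a log axis, old to the left of young, with a line at each group's mean. The old and young points of Anxa1 and Anxa6 are separate, in opposite directions, while those of Anxa2 overlap.

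Anxa1, the ligand that restrains inflammation, had the largest fold change among the annexins. Its level on library totals was 258, 315, 243 and 299.8 RPKM in old cells and 138, 131, 134 and 125 RPKM in young cells. All 4 old libraries stood above all young ones, and the young libraries lay closer together. The difference was 1.07 ± 0.12 on the log2 scale, or 2.096-fold (limma adjusted p = 0.000341). Over 16 alternatives it ranged between 1.01 and 1.13, and on the scale as deposited, not counted among them, it was 1.76 (limma adjusted p = 5.64e-06). The gene covers chr19:20373428-20390944 on the minus strand of GRCm38, and its level rests on 13498 to 20413 reads per old library and 654 to 2283 per young library. These read counts assume the length of 2608 bases that the table implies, where the merged exons span 2911, and RPKM do not depend on this choice.

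Of 11 annexin A1 receptors and glucocorticoid-linked genes 4 passed the filter, 0 rose and 1 fell, with a median of -0.50. This is 1 call in 4, beside 24.8% over all tested genes. Zfp36, which destabilises inflammatory messenger RNAs, fell by 0.91 log2 units (limma adjusted p = 0.0142), with 328 ± 115 RPKM in old and 591 ± 84.5 RPKM in young cells (SD, n = 4 each). On the scale as deposited Zfp36 was not called (-0.21, limma adjusted p = 0.479). Tsc22d3, the glucocorticoid-induced leucine zipper, was not called (0.06, limma adjusted p = 0.833), nor was the phosphatase gene Dusp1 (-0.63 ± 0.39, limma adjusted p = 0.265). Without old library 2, where Dusp1 stood at 63.8 RPKM, its value was -0.16. The formyl peptide receptors Fpr1, Fpr2 and Fpr3 were below the filter.

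Tested genes whose centred levels lay nearest to those of Anxa1 over the 8 libraries were Txnrd1, a thioredoxin reductase, Ftl1, a ferritin light chain, and Srfbp1. Their root mean square distances were 0.0730, 0.116 and 0.121 log2 units, and their log2 fold changes 1.07, 0.92 and 1.05. Nearest to Anxa2 were Pdcd10 at 0.0519, Hnrnpk at 0.0559 and Arf2 at 0.0570. Likeness over 8 libraries of 2 ages is a description only.

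Anxa2, which joins S100a10 in a complex at the membrane and lies at chr9:69453620-69491795 on the plus strand, did not differ beyond its spread. It stood at 156, 217, 199.5 and 179.7 RPKM in old cells and at 174, 157, 166 and 188 RPKM in young cells. The groups overlapped, with the lowest value of all in an old library. The log2 fold change was 0.12 ± 0.13 (limma adjusted p = 0.509), between 0.05 without old library 2 and 0.21 without old library 1, and 0.82 as deposited (limma adjusted p = 0.00537), near the shift of all genes. Its exons share 98 bases with the antisense gene Gm16144, and the library kit does not mark strand. The ratio of Anxa1 to Anxa2 within a library, which no scaling of libraries changes, was 1.498 ± 0.212 in old and 0.773 ± 0.0745 in young cells (SD, n = 4 each), with no overlap. Given the ranges of Anxa1 and Anxa2 above, this ratio had to separate. It restates the result for Anxa1 without adding support.

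S100a10, the partner of annexin A2, stood at 113, 151, 102 and 126 RPKM in old cells and at 79.9, 132, 83.7 and 100.04 RPKM in young cells. The groups overlapped through young library 2, and the log2 fold change was 0.32 ± 0.18 (limma adjusted p = 0.200), or 0.47 without that library (limma adjusted p = 0.0409). The ratio of S100a10 to Anxa2 was 0.659 ± 0.0977 in old and 0.584 ± 0.175 in young cells (SD, n = 4 each). Of 6 S100 genes 4 were tested and 0 were called on library totals, beside 24.8% of all tested genes. As deposited all 4 were called higher, beside 68.1% of all tested genes. Their median there was 0.86, against the shift of 0.64. S100a11, the partner of annexin A1, was not called either (0.15, limma adjusted p = 0.619), and the ratio of S100a11 to Anxa1 was 0.409 in old and 0.792 in young cells, with no overlap. That ratio contains Anxa1, whose own values did not overlap, so it adds no separate support.

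In the plasminogen system, which annexin A2 serves at the cell surface, 2 of 6 tested genes rose and 1 fell, beside 12.3% and 12.5% of all tested genes, with a median of 0.41. Serpine2, an inhibitor of plasminogen activators, rose by 1.25 ± 0.12 (limma adjusted p = 0.000244), with 25.5 ± 1.76 RPKM in old and 10.2 ± 1.26 RPKM in young cells (SD, n = 4 each). Plat, the tissue plasminogen activator, rose by 0.88 ± 0.18 (limma adjusted p = 0.00605), with 90.4 ± 22.4 RPKM in old and 47.9 ± 6.36 RPKM in young cells (SD, n = 4 each). Plgrkt, a plasminogen receptor, fell by 0.58 log2 units (limma adjusted p = 0.0192), and was not called without old library 2 (limma adjusted p = 0.0535) nor as deposited. Plaur and Plau, the urokinase receptor and urokinase, had log2 fold changes of 0.29 and 0.53 (limma adjusted p = 0.190 and 0.238). Without old library 1 or young library 3 the value of Plau was 0.30.

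Anxa5, which forms arrays on phosphatidylserine-rich membranes and is the most abundant annexin here, lies at chr3:36448923-36475894 on the minus strand. It had 444, 581, 568 and 525 RPKM in old cells and 408, 325, 442 and 421 RPKM in young cells. The groups did not overlap, but old library 1 stood barely above young library 3. The log2 fold change was 0.41 ± 0.14, or 1.33-fold, with a limma adjusted p of 0.05004, just above the threshold. As deposited the gene was called higher (1.10, limma adjusted p = 0.000866), where the shift of all genes was 0.64. Over the same 16 alternatives the limma adjusted p ranged from 0.0319, without old library 1, to 0.221, without young libraries 1 and 2, and 4 of them called the gene.

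Anxa6, an annexin with a doubled core that joins the repair cap of injured muscle fibres and modifies muscular dystrophy in mice, was the only tested annexin lower in old cells by the test on library totals. Its level was 164, 199, 189.7 and 171 RPKM in old cells and 262, 242, 256 and 317 RPKM in young cells. The highest old library stood below the lowest young one. The log2 fold change was -0.57 ± 0.12, or 0.675 times (limma adjusted p = 0.00848). On the scale as deposited the groups overlapped and the value was 0.13 (limma adjusted p = 0.648), below the shift of 0.64. The gene lies at chr11:54979108-55033445 on the minus strand.

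The ratio of Anxa1 to Anxa6 within a library, which no scaling of libraries changes, did not overlap between the ages. On library totals Anxa1 stood higher and Anxa6 lower in every old library than in every young one. The ratio therefore had to separate, and it restates those results without adding support. It was 1.57, 1.58, 1.28 and 1.76 in old cells and 0.526, 0.541, 0.522 and 0.395 in young cells. Of the summed annexin RPKM, Anxa1 held 20.8% ± 2.12 in old and 12.0% ± 1.21 in young cells (SD, n = 4 each). Anxa6 held 13.5% ± 0.517 in old and 24.4% ± 1.76 in young cells (SD, n = 4 each). Anxa5 held 39.4% ± 1.58 in old and 36.2% ± 2.39 in young cells (SD, n = 4 each).

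**Figure D3:**
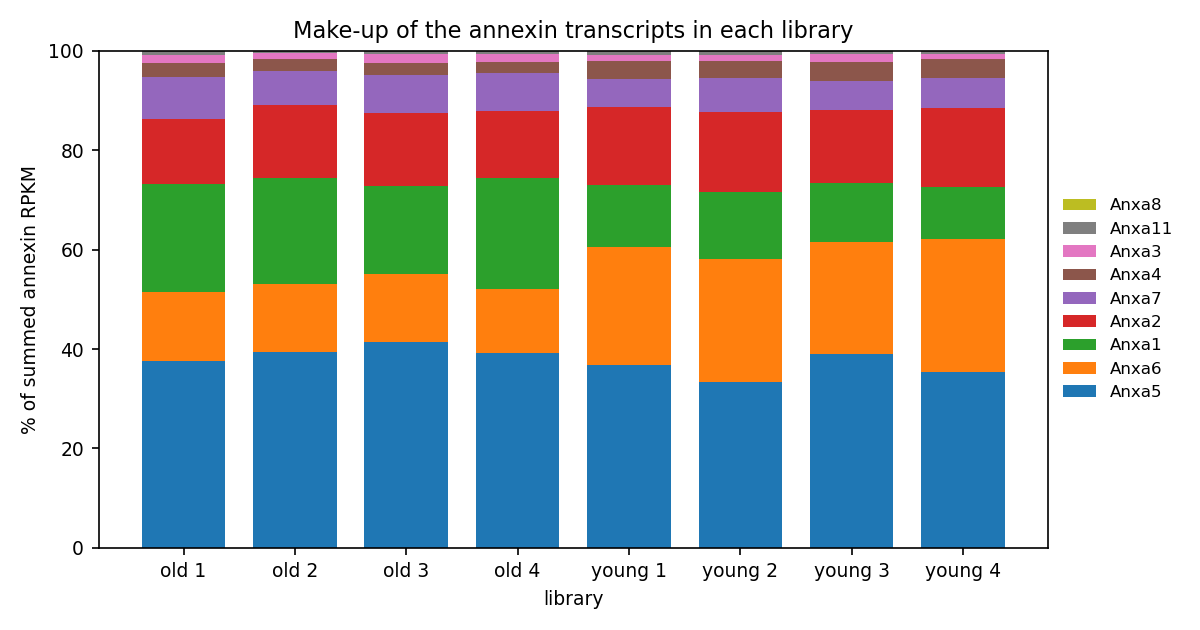
Share of the summed annexin RPKM, in percent, held by each annexin in each library, old to the left of young. The Anxa1 share is 17.7% to 22.4% in old and 10.5% to 13.4% in young libraries, and the Anxa6 share 12.8% to 13.9% in old and 22.6% to 26.7% in young libraries.

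Of 22 other genes of membrane repair 13 were tested, 2 rose and 1 fell, with a median of 0.10. The 3 calls among 13 genes are near the 24.8% called over all tested genes. Ahnak, a scaffold that binds annexin A2 and S100a10, rose by 0.64 ± 0.16 (limma adjusted p = 0.0131), with 79.6 ± 12.6 RPKM in old and 50.9 ± 9.17 RPKM in young cells (SD, n = 4 each). Vps4b, an ATPase of the ESCRT machinery, rose by 0.43 ± 0.10 (limma adjusted p = 0.0126), and was not called without young libraries 1 and 2 (limma adjusted p = 0.0669). Ehd2, a membrane-shaping ATPase of caveolae, fell by 0.52 log2 units (limma adjusted p = 0.0132), with 52.7 ± 2.40 RPKM in old and 76.8 ± 11.3 RPKM in young cells (SD, n = 4 each), and stood at 0.16 as deposited. The caveolar genes Cav1 and Cavin1 had log2 fold changes of 0.29 and 0.10 (limma adjusted p = 0.218 and 0.737). Dysf, the calcium sensor of muscle membrane repair, was below the filter.

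Among genes that set the exposure of phosphatidylserine, the lipid that annexins bind, the scramblase Ano6 rose by 0.44 ± 0.13 (limma adjusted p = 0.0336). Leaving out 1 library ended the call of Ano6 in 5 of 8 cases, with an adjusted p of up to 0.0943 without old library 4. Plscr1 and Tmem30a were not called (0.15 and 0.05, limma adjusted p = 0.669 and 0.784).

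**Figure D4:**
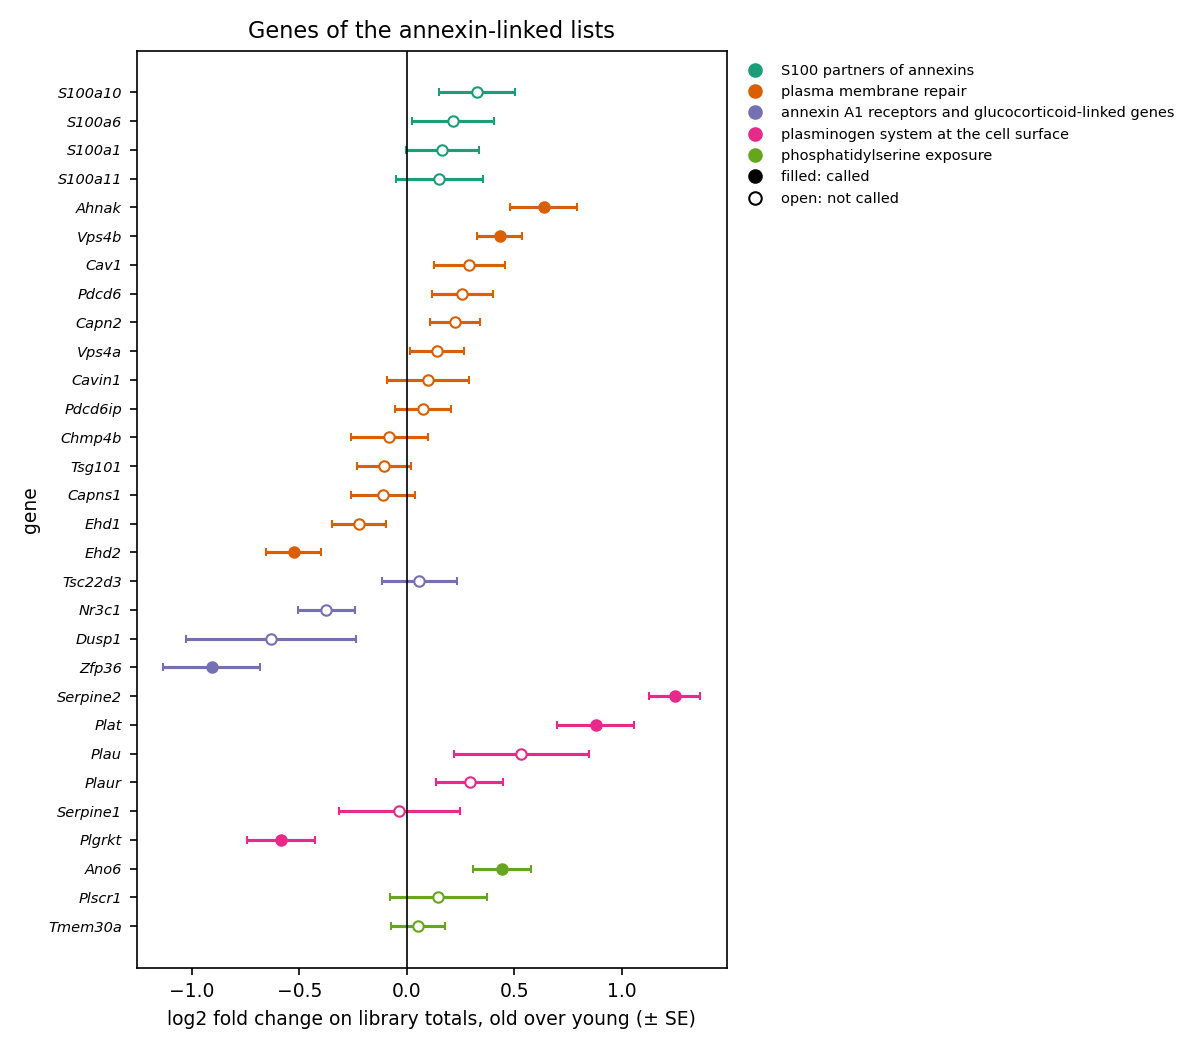
Log2 fold changes on library totals, old over young, with SE, of tested genes from the lists linked to annexins, coloured by list, with filled points for called genes and open points for the others. Serpine2 stands highest at 1.25 and Zfp36 lowest at -0.91.

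Anxa7, also called synexin, which fuses membranes in the presence of calcium, rose with the smallest SE of the 4 annexins that passed the test. It had 100.2, 99.1, 107 and 104 RPKM in old cells and 62.5, 67.2, 66.3 and 71.9 RPKM in young cells. All old libraries stood above all young ones. The log2 fold change was 0.61 ± 0.10, or 1.52-fold (limma adjusted p = 0.00262), and 1.29 as deposited. The gene lies at chr14:20455260-20480133 on the minus strand.

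Anxa3, known from the granules of human neutrophils, rose at a far lower level than Anxa1. It had 21.2, 18.7, 23.8 and 22.1 RPKM in old cells and 12.2, 11.3, 16.6 and 10.6 RPKM in young cells. The groups did not overlap, and young library 3 stood nearest to the old. The log2 fold change was 0.73 ± 0.14, or 1.65-fold (limma adjusted p = 0.00551), and 1.38 as deposited. The values rest on 1549 to 1981 reads per old library and 79 to 397 per young library. It lies at chr5:96793339-96845966 on the plus strand, where 112 exonic bases are shared with Gm42603.

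Anxa4, an annexin of epithelial membranes at chr6:86736840-86793584 on the minus strand, had 32.3, 35.7, 33.6 and 28.4 RPKM in old cells and 41.3, 33.4, 44.0 and 45.1 RPKM in young cells. The groups overlapped only through young library 2. The log2 fold change was -0.32 ± 0.13 (limma adjusted p = 0.0888), and -0.41 without young library 2 (limma adjusted p = 0.0235), with adjusted p up to 0.214 over the alternatives. As deposited it was 0.36 (limma adjusted p = 0.158). Gm44036, on the other strand, shares 75 exonic bases with it.

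Anxa11, which tethers RNA granules to lysosomes and lies at chr14:25842156-25886804 on the plus strand, had 8.33, 6.27, 7.88 and 7.75 RPKM in old cells and 9.15, 7.97, 7.56 and 7.56 RPKM in young cells. The groups overlapped, and the log2 fold change was -0.09 ± 0.13 (limma adjusted p = 0.658), with -0.03 without young library 1, -0.01 without old library 2 and 0.53 as deposited. Its exons share 113 bases with the antisense gene Anxa11os.

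Anxa8, at chr14:34085981-34100571 on the plus strand, was near the floor. It had 0.822, 0.257, 0.860 and 0.741 RPKM in old cells and 0.987, 0.556, 0.892 and 1.12 RPKM in young cells. The groups overlapped, the values rest on 109 reads in the old and 30 in the young libraries, and the exact two-sided permutation p was 0.343, where the smallest that 70 assignments allow is 0.0286.

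Some markers of other cells differed between the ages. The 7 tenocyte markers summed to 1731 to 5244 CPM in old and 652 to 1011 CPM in young libraries (exact permutation p = 0.0286, adjusted 0.0952 over 10 lists). Of these, 6 were tested and all 6 were called higher, beside 12.3% of all tested genes. None of the 7 was without reads in either group. The untested marker, Scx, was low and averaged 0.234 RPKM in old and 0.433 RPKM in young libraries. Fibroblast markers summed to 1312 to 3061 CPM in old and 1607 to 2501 CPM in young libraries. This sum joins opposite directions, since of 6 tested 1 was called higher and 1 lower, beside 12.3% and 12.5% of all tested genes. Dcn averaged 857 RPKM in old and 455 RPKM in young libraries, while the other fibroblast markers averaged lower in old libraries. Among these, Col1a1 averaged 22.5 RPKM in old and 65.6 RPKM in young libraries. Endothelial markers summed to 170 to 402 CPM in old and 419.9 to 475 CPM in young libraries. Of these, 5 were tested and 0 called, beside 24.8% of all tested genes. Neutrophil markers were near 0, with 0.175 to 0.598 CPM in old and 3.20 to 6.80 CPM in young libraries. None passed the filter. Of genes with reads and a mean deposited value under 1 RPKM, 97.1% averaged lower in old libraries. The tenocyte sum of old library 2, 1731 CPM, was the smallest in its age group, while its Anxa1 level, 315 RPKM, was the largest. Anxa3 at 18.7 RPKM and Anxa7 at 99.1 RPKM were each smallest of the old values in that library, Anxa7 only just (100.2 RPKM in old library 1). Old library 2 also had the smallest old sums of fibroblast, endothelial, pericyte, muscle fibre, Schwann and erythroid markers. Its muscle stem cell sum, 12494 CPM, was the largest of the old. These comparisons rest on 1 library. Whether other cells contribute to the annexin levels was not tested.

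**Figure D5:**
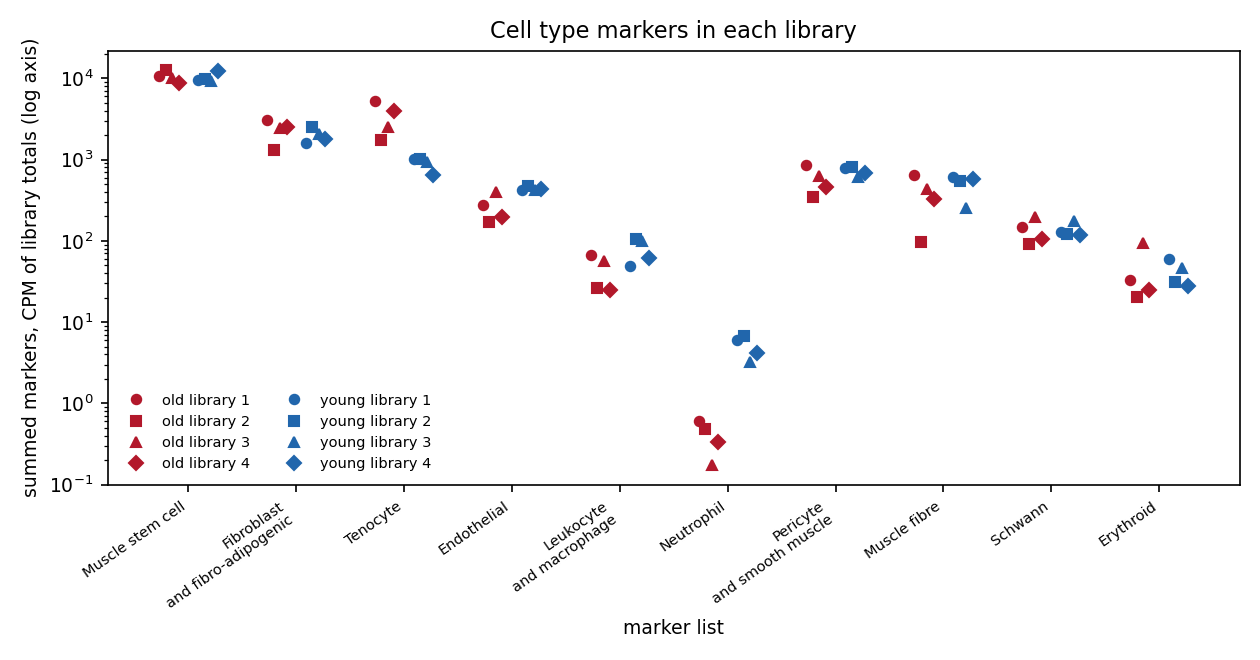
Summed markers of each cell type in CPM of library totals, on a log axis, for each library, old and young. The tenocyte sums of the old libraries, 1731 to 5244, stand above those of the young, 652 to 1011.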

How the data were processed

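Messenger RNA was measured by paired-end sequencing of polyadenylated RNA in 8 libraries, 4 old and 4 young, each from a single animal. The authors deposited RPKM for 24630 genes. The submitters' processing notes name edgeR, Subread with featureCounts, STAR and Trim Galore and the builds GRCm38 and mm10, without versions or settings. Reads per gene were recovered from the steps of the values, with a tolerance of 0.003 from a whole number, and RPKM were rescaled to each library's reads in genes. GENCODE M21, which gives the gene coordinates on GRCm38, had the same exon length as the table for 18813 genes. For 4648 genes, Anxa1 and Anxa7 among them, the length was searched so that reads came out whole, so their wholeness is no check and their reads are known up to a common divisor, and 1169 genes had no read. Genes with a mean deposited RPKM of at least 5 were tested for a difference between old and young on log2(RPKM + 1), with no covariate, by limma 3.58.1 with a mean trend (R 4.3.3). A pseudocount of 1 understates the change of low genes. Anxa8, below the filter, and marker sums were compared by exact two-sided permutation. The script was tested on simulated data. The annexins, the gene lists and the markers were chosen with earlier results of these data known. Named from each list were up to 4 called genes with the largest change and up to 2 uncalled genes with the highest mean, and for Anxa1 and Anxa2 the 3 nearest genes. A gene that this rule names is not reported here.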

Additional observations from a re-analysis of the deposited data

Results flagged for a closer look

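Among 76 groups of 4 libraries examined, 3 had a library standing apart by Dixon's criterion at its 95% level, and chance alone gives about 1 in 20. All 3 were young library 4. Vps4b stood at 9.41 RPKM there, with 8.515 to 8.586 in the other young libraries. Dusp1, an immediate early phosphatase gene, stood at 172 RPKM, with 301.7 to 319.4 in the others. The muscle stem cell marker sum was 12363 CPM, with 9198 to 9684 in the others. No annexin was among them.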

How the results depend on the processing

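Besides the scale as deposited, 16 alternatives were run. They were median-of-ratios scaling, a pseudocount of 0.1, a filter of 1 RPKM or none, limma-voom on recovered reads, reads thinned to equal totals, a replicate block and fits without 1 or 2 libraries. Anxa1, Anxa3 and Anxa7 were called higher and Anxa6 lower under all 16. On the scale as deposited, annexins called were 6 higher and 0 lower, all genes 3882 and 64, and linked genes 26 and 0. The fold changes that changed sign there were Anxa4 0.36, Anxa6 0.13, Anxa11 0.53, Ehd2 0.16, Dusp1 0.060 and Anxa8 0.080, and the marker sums of pericytes 0.30, muscle fibres 0.076, Schwann cells 0.65 and erythroid cells 0.52. With a mean of at least 1 RPKM 2280 genes and 6 linked genes were lower, and without a filter 9423 and 14. Without young libraries 1 and 2, 453 genes and 3 linked genes were higher. Leaving out 1 library gave 3 to 4 annexins higher and 1 to 2 lower, 475 to 795 genes higher and 476 to 802 lower, and 4 to 5 linked genes higher and 2 to 3 lower. It also changed the sign of uncalled genes, with ranges of -0.060 to 0.22 for Cavin1 (below 0 without young library 2), -0.065 to 0.19 for Tsc22d3 (without young library 2 or old library 3), -0.069 to 0.35 for Plscr1 (without old library 3) and -0.020 to 0.12 for Tmem30a (without old library 1 or young library 4). The causes were not tested. The deviations of same-numbered libraries from their group means correlated with r = -0.16, -0.06, 0.38 and -0.23. Old library 3 correlated best with young library 3, the others with a young library of another number. These values cannot exclude a pairing. With the replicate block 3 annexins were higher and 1 lower, and 635 genes were higher and 656 lower. Young depth limits the low annexins most, as with the 30 young reads of Anxa8.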

Other observations

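The annexin genes Anxa9, Anxa10 and Anxa13 were all below the filter. Anxa9 had 0.745, 0.543, 0.759 and 0.858 RPKM in old libraries and 2.15, 5.30, 1.40 and 1.86 RPKM in young libraries. Anxa10 had 0.130, 0.105, 0.0381 and 0.0839 RPKM in old libraries and 1.94, 2.74, 0.399 and 1.53 RPKM in young libraries. Both were lower in every old library than in every young one. A lower mean in old libraries was shared by 97.1% of the 12365 genes with reads and a mean deposited value under 1 RPKM. Anxa10 is among these genes, and Anxa9 lies just above that limit.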
